A study of Mus with 4 samples.

Results

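The expression of 6 genes of the IgG receptor system, Fcgr2b, Fcgr3, Fcgr4, Fcer1g, Fcgr1 and Fcgrt, was followed in LSECs, the sinusoidal endothelial cells whose pores let blood plasma reach the hepatocytes. They were chosen by Ensembl identifier for their function, with earlier results of these data known. All 6 of the 6 were present among the 54532 identifiers of the deposited read count table. All 6 were also among the 15510 genes that passed the filter on low counts. The RNA-seq libraries were of mice given CCl4 (carbon tetrachloride), 2 from controls (CTL) and 2 from mice with a Pofut1 knockout (P1KO). The liver toxin was given to both groups, so an untreated liver is not part of the comparison. The series title places POFUT1, the enzyme that adds O-linked fucose to Notch receptors and other proteins with EGF-like repeats, in the endothelium. The driver of the deletion and the strain and age of the mice are not stated in the labels. The question set by the series is how POFUT1 shapes the state of LSECs and hepatic stellate cells.

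Fc gamma receptors bind the constant part of IgG antibodies. Fcgr2b encodes the inhibitory receptor, whose tail carries an inhibitory motif, and in the liver it is known chiefly from the sinusoidal endothelium, where it takes up small immune complexes from the blood. Fcgr1, Fcgr3 and Fcgr4 encode activating receptors, known from Kupffer cells, monocytes and neutrophils and, for Fcgr3, natural killer cells, and they signal through a shared adaptor, the Fc receptor gamma chain encoded by Fcer1g. That chain carries an activating motif, also serves several other immune receptors, and is needed for the activating receptors to reach the cell surface. Fcgrt encodes FcRn, a receptor built like MHC class I that returns IgG and albumin from endosomes to the blood and is abundant in endothelium, macrophages and hepatocytes.

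The libraries are called CTL1, CTL2, KO1 and KO3, after their columns, and held between 17464769 and 17918834 counts each. Levels are given as CPM, the read count scaled to a common library total after TMM normalisation. The CTL libraries lay closer together than the P1KO libraries, with a median absolute difference of 0.10 log2 between CTL1 and CTL2 and of 0.15 between KO1 and KO3 over all tested genes. The labels give LSECs from liver, whereas the extraction protocol names heart ventricles, a contradiction that the labels do not resolve. The identifiers of the table were not paired with symbols, so Pofut1, the endothelial and heart markers, and the markers of Kupffer cells, monocytes and other cells that carry activating receptors are not analysed here. Whether the amount of such cells moved with any result below was not tested. In bulk RNA, fewer cells of a type and less RNA per cell cannot be told apart.

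In the knockout the inhibitory receptor gene Fcgr2b, Fcgrt and the scarce activating receptor gene Fcgr1 were higher, the adaptor gene Fcer1g was 4.997-fold lower, and Fcgr3 and Fcgr4 did not pass the test. Thus 4 of the 6 genes were called, 3 higher and 1 lower, in edgeR's quasi-likelihood test with a Benjamini-Hochberg adjusted p below 0.05 over all tested genes. Of all 15510 tested genes 19.5% were called, 9.68% higher and 9.84% lower. The 6 genes were chosen with earlier results of these data known, so their counts and median are description only. The median log2 change was 0.16 over the 6 genes and -0.01 over all tested genes. The groups did not overlap for 4 of the 6 genes, a share close to the 62.6% of all tested genes for which this held. The calls did not hold when either CTL library was left out. In edgeR 0 of the 6 genes were called without CTL1 or without CTL2, where the P1KO pair alone set the spread and 129 and 120 of all tested genes passed, 0.832% and 0.774%. With the CTL libraries summed into 1, 0 of the 6 and 0.98% of all tested genes were called. In each of these 3 edgeR fits, Fcgr2b, Fcer1g and Fcgr1 had an unadjusted p below 0.05, 3 of the 6 genes, as did 18.8% of all tested genes with the CTL libraries summed, 18.8% without CTL1 and 19% without CTL2. With KO1 or KO3 left out the CTL pair alone set the spread, and 5 of the 6 genes were called each time, beside 34.8% and 33.6% of all tested genes.

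**Figure D1:**
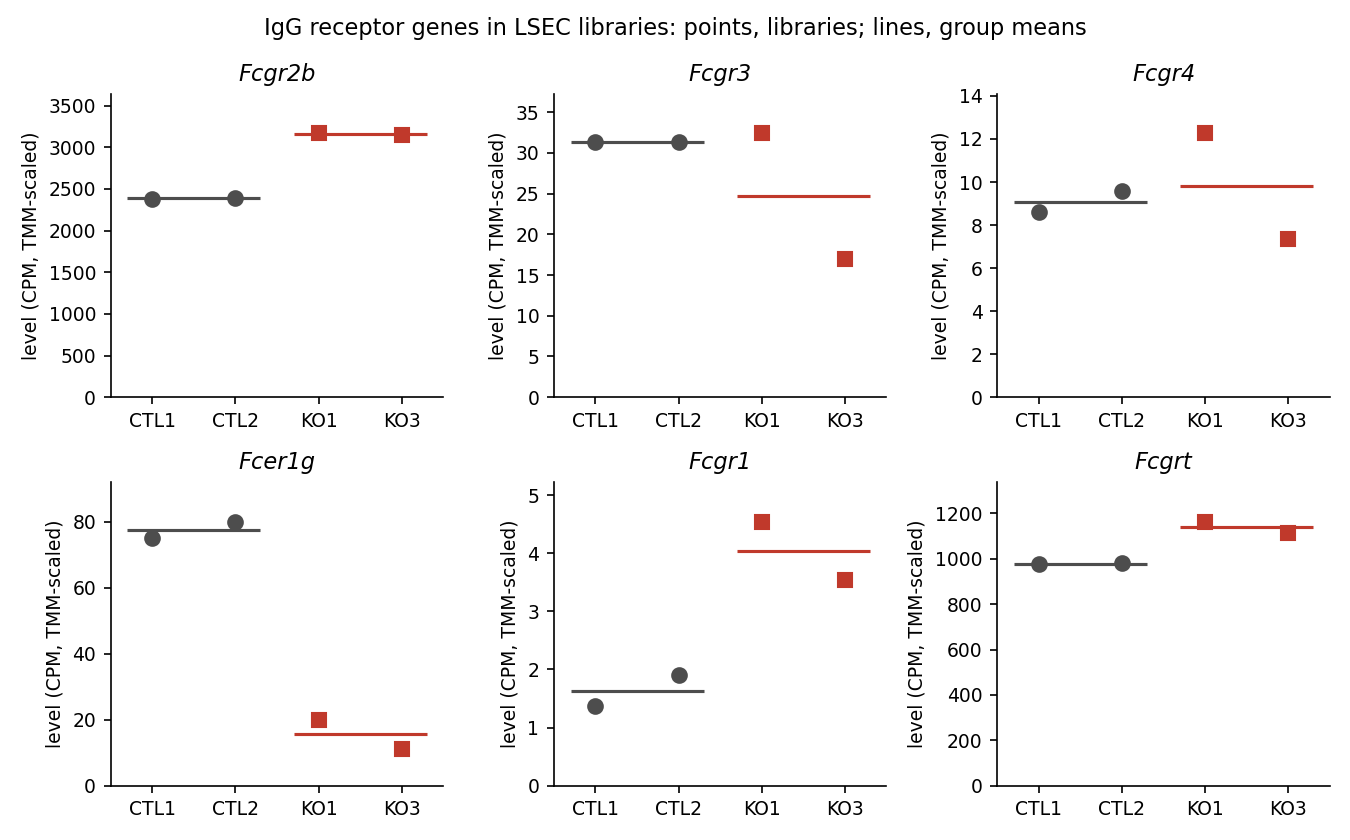
Level of each gene (CPM after TMM scaling, axis from 0) in the 2 CTL libraries (circles) and the 2 P1KO libraries (squares), with lines at the group means. Fcgr2b, Fcgrt and Fcgr1 are higher and Fcer1g lower in both P1KO libraries, whereas KO1 and KO3 lie on either side of the CTL libraries for Fcgr4 and Fcgr3.

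Fcgr2b (ENSMUSG00000026656), the inhibitory receptor of the sinusoid, took the most reads of the 6 genes. CTL1 gave 41823 reads, CTL2 42705, KO1 55787 and KO3 55972. Both P1KO libraries were well above both CTL libraries, and the libraries within each genotype were nearly equal. By read number, which is not corrected for gene length, it held rank 25 among all genes in each CTL library, rank 15 in KO1 and rank 13 in KO3. Its mean level was 2386 ± 6.39 CPM in the controls and 3157 ± 17.9 CPM in the knockout (SD, n = 2 libraries each). In edgeR this was a 1.32-fold rise, or 0.40 ± 0.04 (SE) on the log2 scale, at an adjusted p of 0.000644. From the summed reads the ratio of P1KO to CTL was 1.32, with a 95% exact binomial interval of 1.31 to 1.33 that covers counting error only. A change of this size was common, since 28.4% of all tested genes changed by more in either direction. Calls were also frequent among genes this abundant: of the 257 genes with a mean of at least 512 CPM, 61.9% were called and 33.9% were called higher. The direction was the same in 13 of 13 alternatives, between 0.39 and 0.41 on the log2 scale, and 9 of them kept the call. In edgeR the adjusted p became 0.122 when either CTL library was left out and 0.120 when they were summed.

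Fcgrt (ENSMUSG00000003420), the gene of the recycling receptor FcRn, was the other abundant gene. CTL1 gave 17137 reads, CTL2 17545, KO1 20482 and KO3 19836. The P1KO libraries were again higher than both CTL libraries, by a smaller margin than for Fcgr2b. The mean level was 979 ± 4.46 CPM in the controls and 1139 ± 34.9 CPM in the knockout (SD, n = 2 libraries each). In edgeR this was a 1.16-fold rise, or 0.22 ± 0.05 (SE) on the log2 scale, at an adjusted p of 0.0165. Of all tested genes 49.7% changed by more, so this was a change of about median size. Fcgrt, too, was among the 257 genes with a mean of at least 512 CPM, of which 61.9% were called and 33.9% called higher. Against a minimum change of 1.5-fold it was not called. Leaving out CTL1 moved the adjusted p of the same test to 0.296, and leaving out CTL2 to 0.277. For each 100 Fcgr2b reads CTL1 had 41.0 Fcgrt reads, CTL2 41.1, KO1 36.7 and KO3 35.4. The groups did not overlap in this ratio, and the exact two-sided permutation test gave p = 0.333, the smallest that 2 libraries against 2 allow.

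Fcer1g (ENSMUSG00000058715), the signalling chain of the activating receptors, showed the largest change of the 6 genes. CTL1 gave 1315 reads and CTL2 1429, but KO1 gave 352 and KO3 196. Both P1KO libraries were far below both CTL libraries, and KO3 was the lower. The mean level was 77.4 ± 3.62 CPM in the controls and 15.5 ± 6.36 CPM in the knockout (SD, n = 2 libraries each). In edgeR the log2 change was -2.32 ± 0.21 (SE), at an adjusted p of 0.000612. Summed over each group, the reads put CTL at 5.004 times P1KO, and the 95% exact binomial interval for counting error ran from 4.56 to 5.50. Among the 15510 tested genes, 54 had a more negative change, and 0.696% changed by more in either direction. Calls with a fall of at least 2-fold made up 2.88% of all tested genes. Fcer1g was the 1 gene of the 6 that passed a test against a minimum change of 1.5-fold (edgeR's glmTreat, adjusted p = 0.00343), which 1.74% of all tested genes passed. The log2 change was negative in 13 of 13 alternatives, from -2.81 without KO1 to -1.95 without KO3. Leaving out CTL1 moved its edgeR adjusted p to 0.0541, leaving out CTL2 to 0.0613, and summing the CTL libraries to 0.0557, just above the threshold each time.

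**Figure D2:**
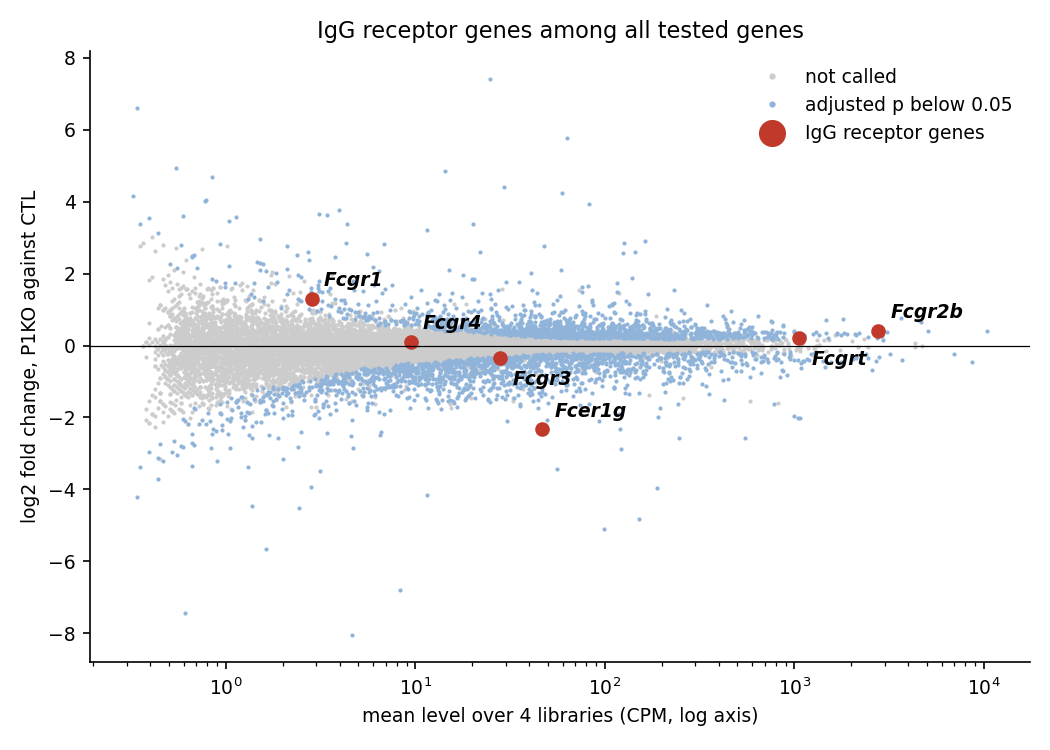
Log2 fold change of P1KO against CTL plotted on mean level (CPM, log axis) for all 15510 tested genes, blue where called and grey where not, with the 6 IgG receptor genes in red. Fcer1g lies at -2.32, far below the bulk of genes of like abundance, while Fcgr2b and Fcgrt lie at 0.40 and 0.22 near the abundant end.

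Of the 3 genes of activating receptors that pair with this chain, Fcgr1 rose and Fcgr3 and Fcgr4 did not pass the test. Fcgr1 (ENSMUSG00000015947), the high-affinity IgG receptor, was scarce: CTL1 gave 24 reads, CTL2 34, KO1 80 and KO3 63. The P1KO libraries held more reads than both CTL libraries. The mean level was 1.64 ± 0.380 CPM in the controls and 4.04 ± 0.712 CPM in the knockout (SD, n = 2 libraries each). In edgeR the log2 change was 1.301 ± 0.297 (SE), at an adjusted p of 0.0219. The ratio of P1KO to CTL from the summed reads was 2.47, with a 95% exact binomial interval of 1.81 to 3.41. A rise of this size was uncommon, as 188 of the tested genes had a higher log2 change and 3.66% changed by more in either direction. The call depended on the processing: the edgeR adjusted p became 0.0573 when no filter on low counts was applied, a setting in which 6.24% of all tested genes passed, 0.225 when CTL1 was left out and 0.152 when CTL2 was. Across the 12 alternatives that tested this gene the change stayed positive, between 1.08 and 1.55 on the log2 scale.

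Fcgr3 (ENSMUSG00000059498), a low-affinity activating receptor, differed more between the P1KO libraries than between the genotypes. CTL1 gave 550 reads, CTL2 561, KO1 571 and KO3 302. KO1 was level with the controls, and KO3 was well below them. The mean level was 31.4 ± 0.0603 CPM in the controls and 24.7 ± 10.9 CPM in the knockout (SD, n = 2 libraries each), a log2 difference of -0.34 ± 0.25 (SE; edgeR adjusted p = 0.379). The value was 0.049 without KO3 and -0.89 without KO1, so 1 library set the direction. As background, Fcgr2b and Fcgr3 are close in sequence in their extracellular parts, and how reads matching both were counted is not stated in the labels. For each 100 reads of Fcgr2b, CTL1 had 1.32 of Fcgr3, CTL2 1.31, KO1 1.02 and KO3 0.540. Whether reads of the more abundant Fcgr2b entered the Fcgr3 counts was not tested.

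For Fcgr4 (ENSMUSG00000059089), an activating receptor of monocytes and neutrophils, CTL1 gave 151 reads, CTL2 171, KO1 216 and KO3 131. KO1 was the highest of the libraries and KO3 the lowest, so the groups overlapped. The mean level was 9.09 ± 0.689 CPM in the controls and 9.82 ± 3.47 CPM in the knockout (SD, n = 2 libraries each), a log2 difference of 0.11 ± 0.24 (SE; edgeR adjusted p = 0.788). The counting interval of the P1KO to CTL ratio ran from 0.924 to 1.26. The log2 change was 0.43 without KO3, which passed in edgeR at an adjusted p of 0.0370, and -0.30 without KO1.

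Libraries of 1 genotype were then compared gene by gene. KO3 held less of Fcgr3, Fcgr4 and Fcer1g than KO1, at ratios of 0.523, 0.600 and 0.551 in CPM. The 95% exact binomial intervals were 0.453 to 0.602 for Fcgr3, 0.479 to 0.748 for Fcgr4 and 0.460 to 0.657 for Fcer1g, all below 1. These were unusual gaps within the pair: 3.16% of the tested genes had a lower KO3 to KO1 ratio than Fcgr3, 4.51% a lower one than Fcgr4, and 3.60% a lower one than Fcer1g. For Fcgr1 it was 0.779, and the interval of 0.551 to 1.10 included 1. Fcgr2b, at 0.992 with an interval of 0.980 to 1.004, did not differ between KO1 and KO3 beyond counting error, and Fcgrt was slightly lower in KO3, at 0.958 with bounds of 0.939 and 0.976. Between CTL2 and CTL1 the ratios of the 6 genes ran from 1.003 for Fcgr3 to 1.39 for Fcgr1, and every counting interval included 1. The P1KO libraries were thus much further apart for Fcer1g, Fcgr3 and Fcgr4 than for Fcgr2b and Fcgrt, and no label says what sets KO1 and KO3 apart.

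**Figure D3:**
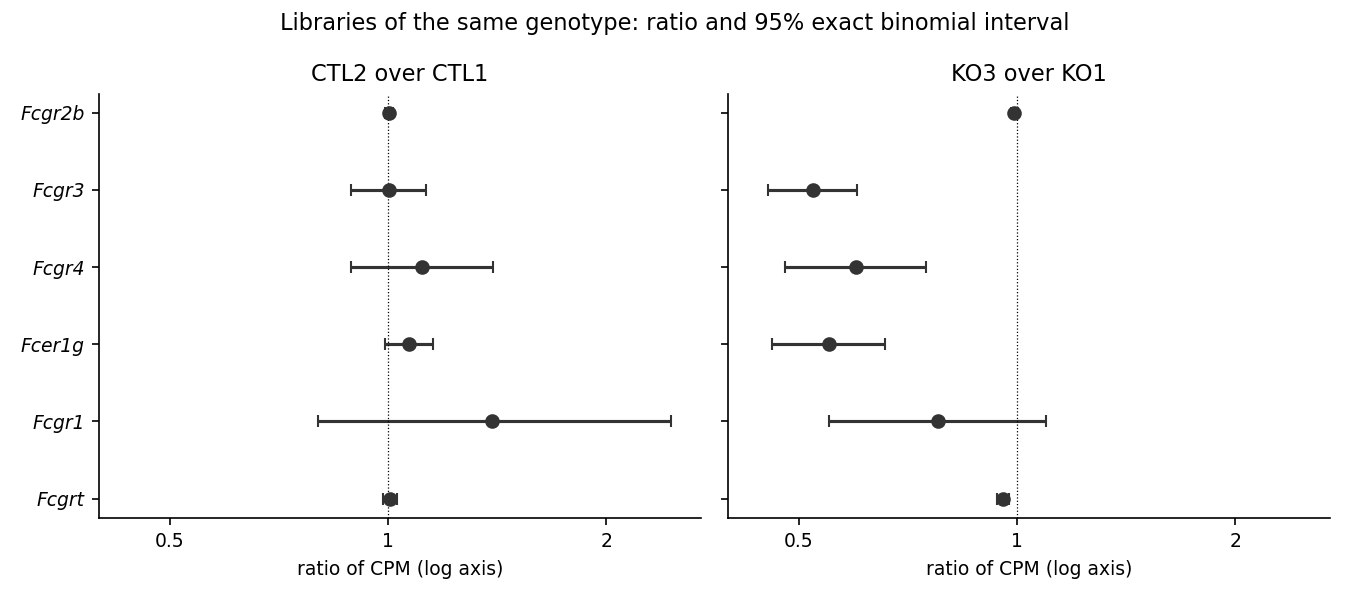
Ratio of CPM between the 2 libraries of each genotype (log axis), CTL2 over CTL1 on the left and KO3 over KO1 on the right, with 95% exact binomial intervals for counting error. On the right Fcgr3, Fcgr4 and Fcer1g lie between 0.523 and 0.600 while Fcgr2b and Fcgrt lie near 1.

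Set against the receptors it serves, Fcer1g had far fewer reads in P1KO, at nearly the same ratio in both libraries. The activating receptors together, Fcgr3, Fcgr4 and Fcgr1, gave 725 reads in CTL1, then 766 in CTL2, 867 in KO1 and 496 in KO3, so the groups overlapped in this sum. For each 100 of these reads the controls had 181 (CTL1) and 187 (CTL2) Fcer1g reads, against 40.6 in KO1 and 39.5 in KO3. The mean ratio was thus 4.59-fold higher in CTL, although Fcer1g, Fcgr3 and Fcgr4 were each lower in KO3 than in KO1. Gene length cancels between libraries only for a ratio of 1 gene to 1 gene. The receptor sum joins several genes, and the mean share of Fcgr3 in it was 74.5% in CTL and 63.4% in P1KO. The 4.59-fold value may therefore depend in part on gene length. The ratio itself is in reads and does not compare the levels of the genes. The exact two-sided permutation test gave p = 0.333, the smallest that this design allows. Against Fcgr3 alone, Fcer1g had 239 and 255 reads per 100 in the CTL libraries, but 61.6 in KO1 and 64.9 in KO3.

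The balance of activating to inhibitory receptor transcripts was described in the same way. For each 100 Fcgr2b reads, CTL1 held 1.73 and CTL2 1.79 activating receptor reads, and KO1 held 1.55 and KO3 0.886. Both P1KO libraries were lower, KO1 by little, and the mean ratio of P1KO was 0.692 of that of CTL (exact two-sided permutation p = 0.333). KO1 nonetheless held the most activating receptor reads, 867, beside 725 in CTL1, 766 in CTL2 and 496 in KO3. Its ratio was lower because its Fcgr2b reads were higher, at 55787. Gene length does not cancel for this sum either. Fcgr3 supplied most of the activating reads, between 60.9% and 75.9% of them. Without Fcgr3 the P1KO mean was 0.976 of the CTL mean, with values of 0.418 in CTL1, 0.480 for CTL2, 0.531 for KO1 and 0.347 for KO3. The groups overlapped in this narrower ratio, so the lower value in P1KO was not seen without Fcgr3. Within the activating receptor reads, the share of Fcgr1 was 3.31% (CTL1) and 4.44% (CTL2) in the controls, and 9.23% (KO1) and 12.7% (KO3) in the knockout.

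**Figure D4:**
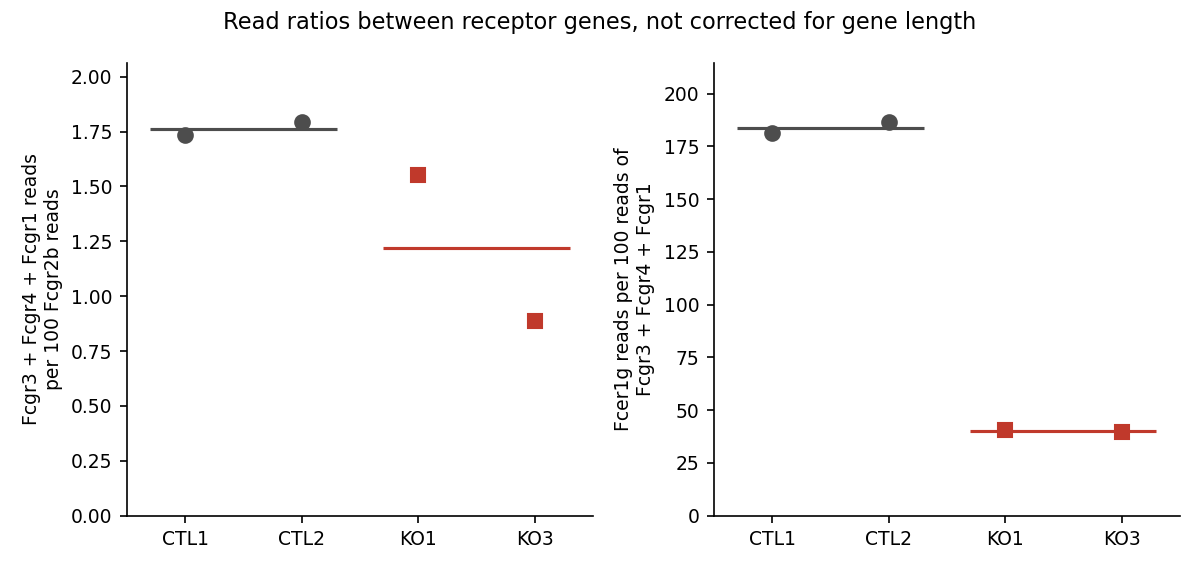
Reads of the activating receptors Fcgr3, Fcgr4 and Fcgr1 per 100 Fcgr2b reads (left) and Fcer1g reads per 100 reads of those receptors (right), by library, with lines at the group means and axes from 0. On the right the CTL libraries lie at 181 and 187 and the P1KO libraries at 40.6 and 39.5, without overlap.

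The genes also differ in where they lie. By RefSeq symbols on GRCm38.p6, the assembly also known as mm10, which is the build named in the submitters' processing notes, Fcgr2b lies at chr1:170960558-170976071, Fcgr4 at chr1:171018926-171029761, Fcgr3 at chr1:171051169-171065915 and Fcer1g at chr1:171229572-171234349. These 4 genes span 274 kb. Fcgr1 lies at chr3:96282909-96293969 and Fcgrt at chr7:45092993-45103822. Within the chromosome 1 interval the log2 changes were 0.40 for Fcgr2b, 0.11 for Fcgr4, -0.34 for Fcgr3 and -2.32 for Fcer1g, so the outermost genes were called in opposite directions and the inner genes were not called. In RefSeq 4 small RNA genes overlap the span of Fcgr3 and 1 that of Fcgr4, and no other gene overlaps any of the 6. Neighbouring genes were not analysed here.

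The likeness of other genes to Fcgr2b was measured as the root mean square difference of centred log2 CPM over the 4 libraries, among genes with a mean of at least 5 CPM. The closest was ENSMUSG00000031029, at 0.0045 log2, with levels of 226 and 228 CPM in the controls and of 300.3 and 299 CPM in the knockout. Next was ENSMUSG00000041308, at 0.0074 log2, with 103 and 105 CPM in CTL and 137 CPM in each P1KO library. Of the IgG receptor genes Fcgrt was the nearest to Fcgr2b, at 0.09 log2, and still 10.03% of the genes compared were closer. Fcer1g was the farthest, at 1.42 log2, with 99.8% of the genes closer to Fcgr2b.

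**Figure D5:**
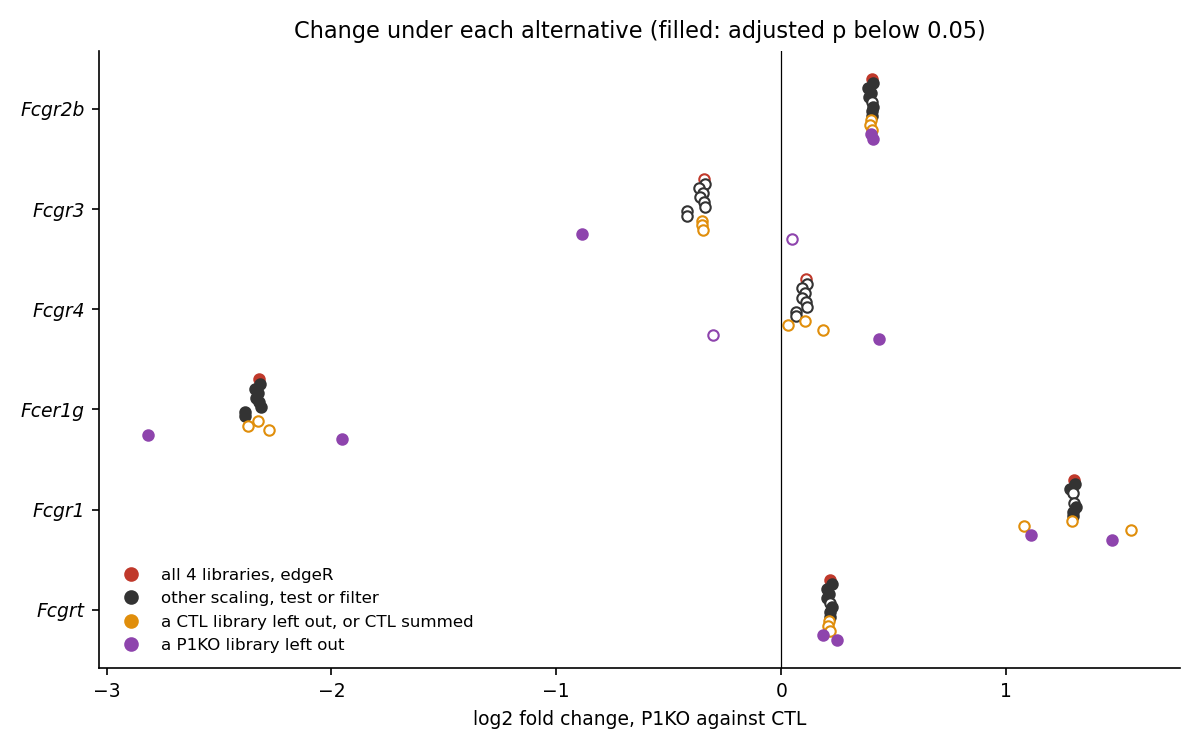
Log2 fold change of P1KO against CTL for each gene in the fit to all 4 libraries (red) and under up to 13 alternatives, with filled points where the adjusted p was below 0.05. Fcgr2b, Fcgrt, Fcgr1 and Fcer1g stay on 1 side of 0 throughout, but are not called with a CTL library left out or the CTL libraries summed (orange). Fcgr2b, Fcgrt and Fcgr1 are also not called with a 1.5-fold minimum change, nor Fcgr1 with no filter on low counts (black). Fcgr3 and Fcgr4 change sign when a P1KO library is left out (purple).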

How the data were processed

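The authors deposited 1 table of raw read counts for 54532 Ensembl mouse genes in 4 columns, with no symbols. Per the submitters' processing notes, the build was mm10 and the tools included featureCounts 1.5.0-p3, HISAT2 2.0.5, fastp and CASAVA. The annotation release and the strand setting are not stated there. Column KO3 matches the P1KO group but no sample number. The labels do not tie libraries to mice, so p-values reflect only how far these libraries differ, and that spread could be technical. The 6 genes were found by identifier, with symbols from the rule that chose them. All 6 symbols were found in RefSeq (GRCm38.p6), which paired 0 identifiers, so the other gene lists and the neighbouring genes could not be tested. Named genes were the 6, plus the 2 closest to Fcgr2b. Members and lists were chosen with earlier results of these data known.

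Counts were tested with edgeR 4.0.16 in R 4.3.3 (filterByExpr, TMM, quasi-likelihood F-test, no covariate, Benjamini-Hochberg), calling at 0.05. The SE is the log2 fold change divided by the square root of F. For likeness, a prior count of 2 was added before taking log2 CPM. The script was tested on simulated data that gave both groups the same spread, so that test does not bear on the unequal spread of these libraries. The 13 alternatives used other scaling, DESeq2 1.42.0, limma 3.58.1 (voom, also with a separate spread per group), other filters, a 1.5-fold minimum change, summed CTL libraries and each library left out. Depth of 17464769 to 17918834 counts limits precision for Fcgr1. Intervals cover counting error only.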

Additional observations from a re-analysis of the deposited data

How the results depend on the processing

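Other scaling, DESeq2, limma-voom, a separate spread per group and a filter of 5 CPM kept the direction of all 6 genes and all calls among the genes they tested. The 5 CPM filter removed Fcgr1. With no filter on low counts 1633 genes and 3 of the 6 IgG receptor genes were called, with a 1.5-fold minimum change 270 and 1, and with the CTL libraries summed 152 and 0. Leaving out 1 library gave 120 to 5391 called genes and 0 to 5 of the 6 genes. The library then left alone in its group was assumed to share the other group's spread. With 1 library left out, the log2 change of Fcgr3 ran from -0.89 (without KO1, called) to 0.049 (without KO3), and that of Fcgr4 from -0.30 (without KO1) to 0.43 (without KO3, called). The ratio of activating receptor to Fcgr2b reads in P1KO over that in CTL, 0.692, was 0.976 without Fcgr3 and between 0.502 and 0.881 with 1 library left out. The cause was not tested, except that a minimum change lowers the number of calls by construction. No paired analysis was run, because the labels give no pairing of CTL with P1KO libraries. The neighbours on chromosome 1 were not run, for lack of paired symbols. With 24 to 80 reads a library, Fcgr1 was measured with the least precision.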
